A study of Mus musculus with 59 samples.

Results

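Expression of 9 genes for stress granule assembly and RNA binding was examined in embryoid bodies containing spinal motor neurons after exposure to mouse serum. The genes were Atxn2, Atxn2l, G3bp1, G3bp2, Tia1, Tial1, Caprin1, Ubap2l and Tardbp, chosen by symbol, and each is 1 of the 19613 genes in the table of values. The embryoid bodies were cell aggregates derived from HBG3 HB9 mouse embryonic stem cells, which carry a green fluorescent reporter of the motor neuron gene HB9 (Mnx1), and all of them came from this 1 stem cell line. They were incubated for 24 h with serum from mice hemizygous for a mutant human SOD1 transgene, an inherited cause of amyotrophic lateral sclerosis (ALS), sampled before symptoms (carrier serum, 29 arrays), or from their wild-type littermates (non-carrier serum, 30 arrays). The same stem cell line was used in both groups, so the genotype compared was that of the serum donor. The donors were males, described as F1 progeny of C57BL/6 and SJL. An age of 9 weeks was given for 27 non-carrier and 26 carrier arrays and of 10 weeks for 3 and 3, worded as an age of the cultures. Total RNA was measured on Affymetrix mouse exon arrays, where the value of a gene is an intensity given here on the log2 scale. The arrays fall into 9 runs by their titles: motorneuron (7 arrays), HB9MNs (4), A (6), B (6), C (11), D (7), E (6), F (6) and 10-week (6), of which A to F are known in the titles only by ranges of numbers.

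Stress granules are assemblies of untranslated messenger RNA and RNA-binding proteins that form in the cytoplasm when translation initiation is blocked, for instance after phosphorylation of the initiation factor eIF2 alpha. G3BP1 and G3BP2 form their scaffold, Caprin-1 and UBAP2L bind the G3BP proteins, TIA-1 and its paralog TIAR (Tial1) contribute through prion-like domains, and ataxin-2 (Atxn2) and ataxin-2-like (Atxn2l) are further components. TDP-43 (Tardbp), a nuclear splicing regulator, aggregates in the motor neurons of most patients with ALS, and intermediate repeat expansions in human ATXN2 are a risk factor for the disease.

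The arrays measured embryoid bodies in bulk, so that fewer cells of a type and less RNA per cell cannot be told apart. Median intensities per array were 151 to 183 for carrier and 153 to 177 for non-carrier serum, and no pair of arrays held identical values. Of 6 motor neuron markers, 5 were measured, with group means of 8.55 (Slc5a7) to 10.54 (Isl1) on the log2 scale. Slc5a7, the choline transporter of cholinergic neurons, was higher with carrier serum by 0.15 (SE 0.042, limma adjusted p = 0.0410). Isl1 was also higher (0.053), while Lhx3 (-0.086), Mnx1 (-0.035) and Chat (-0.023) were lower, and none of Isl1, Lhx3, Mnx1 and Chat passed the threshold. The motor neuron markers thus did not share a direction, with 3 of 5 below 0. The summed motor neuron level spanned 11.43 to 11.92 in the carrier group and 11.50 to 11.88 in the non-carrier group. Summed levels of 5 progenitor markers spanned 11.01 to 11.73 and 11.05 to 11.66, those of 4 pluripotency markers 7.39 to 8.41 and 7.42 to 8.38, those of 3 astrocyte markers 8.01 to 8.67 and 8.02 to 8.70, and those of 2 of 4 red blood cell markers 6.12 to 6.88 and 6.07 to 6.79, and none of these genes passed. Of the 5 progenitor markers 2 were below 0, with Olig2 at -0.085 (limma adjusted p = 0.0936). None of the 4 pluripotency, 3 astrocyte and 2 red blood cell markers was below 0, beside 38.9% of all genes. Among them Pou5f1 was at 0.12 (limma unadjusted p = 0.0234) and Nanog at 0.11 (unadjusted p = 0.0204). The part of cell composition in the results below was not tested. The covariate models given under processing cannot tell it apart from serum, because some of their covariates had small p for serum themselves. For Olig2, Lhx3 and Isl1 the limma unadjusted p was 0.00466, 0.00644 and 0.00769. The labels do not say which sera came from the same mouse or which embryoid bodies from the same culture, so p-values measure the spread between these arrays.

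The promoters of 3 of the genes are shown because Atxn2l was the gene that passed the serum test, Atxn2 is its paralog, and Ubap2l had the next smallest p and moved the other way. Sequences are from RefSeq in build GRCm38.p6, in windows of 300 bases that span an annotated start, and all 9 genes had at least 1. Capitals mark the E box CACGTG and the CCAAT box (CCAAT or, on the other strand, ATTGG), which were searched on both strands together with the C/EBP-ATF core TGATGNAA and the cyclic AMP response element TGACGTCA. These motifs were chosen after the data were seen. Atxn2l has 2 starts on the minus strand of chromosome 7, at chr7:126503388-126503687 (first) and chr7:126502376-126502675 (second), Atxn2 is shown at chr5:121711359-121711658 on the plus strand, and Ubap2l at chr3:90052466-90052765 on the minus strand.
Atxn2l, first start: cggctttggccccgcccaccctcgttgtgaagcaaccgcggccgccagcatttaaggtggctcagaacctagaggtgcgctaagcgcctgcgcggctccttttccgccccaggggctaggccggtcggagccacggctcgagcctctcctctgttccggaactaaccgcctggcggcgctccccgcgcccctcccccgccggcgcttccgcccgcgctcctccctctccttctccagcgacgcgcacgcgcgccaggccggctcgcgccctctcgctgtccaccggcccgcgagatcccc
Atxn2l, second start: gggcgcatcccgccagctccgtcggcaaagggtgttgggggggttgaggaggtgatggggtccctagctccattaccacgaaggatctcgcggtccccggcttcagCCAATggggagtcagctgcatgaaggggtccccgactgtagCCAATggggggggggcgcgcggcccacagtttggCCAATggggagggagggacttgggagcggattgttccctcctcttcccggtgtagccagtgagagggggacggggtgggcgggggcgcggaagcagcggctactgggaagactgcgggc
Atxn2: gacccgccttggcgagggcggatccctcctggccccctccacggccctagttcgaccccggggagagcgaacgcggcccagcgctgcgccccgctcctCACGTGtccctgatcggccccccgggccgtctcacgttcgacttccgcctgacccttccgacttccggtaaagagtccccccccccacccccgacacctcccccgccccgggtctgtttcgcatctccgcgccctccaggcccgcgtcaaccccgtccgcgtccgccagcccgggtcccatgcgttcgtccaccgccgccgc
Ubap2l: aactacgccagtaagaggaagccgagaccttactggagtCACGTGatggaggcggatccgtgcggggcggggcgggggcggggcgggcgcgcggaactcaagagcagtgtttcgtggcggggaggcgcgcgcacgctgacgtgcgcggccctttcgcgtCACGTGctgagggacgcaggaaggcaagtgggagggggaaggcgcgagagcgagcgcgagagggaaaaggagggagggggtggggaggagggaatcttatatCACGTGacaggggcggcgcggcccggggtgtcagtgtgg

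The second Atxn2l window holds 3 CCAAT boxes and the first holds none of the 4 motifs. Atxn2 and Ubap2l also have 2 annotated starts each, of which the first is shown. The first Atxn2 window holds 1 E box and the second holds none of the 4 motifs. Each of the 2 Ubap2l windows, which overlap, holds 3 copies of the E box. E boxes were present in 7.15% and CCAAT boxes in 37.4% of 32851 RefSeq promoters. Neither TGATGNAA, found in 3.97% of promoters, nor TGACGTCA, found in 1.79%, occurred in a window of any of the 9 genes. Among the others, G3bp1 holds 3 CCAAT boxes, G3bp2 holds 1 E box at its first start and 1 CCAAT box at its second, and Tia1, Tial1, Caprin1 and Tardbp hold none of the motifs. A match describes these letters and is not a measured binding site.

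Atxn2l was lower in embryoid bodies exposed to carrier serum, and it was the single gene of the 9 to pass the test across all runs. With non-carrier serum its log2 intensity had a lowest value of 10.52, a median of 10.82 and a highest value of 11.09 (mean 10.80 ± 0.15, SD, n = 30). With carrier serum the corresponding values were 10.43, 10.66 and 11.04 (mean 10.67 ± 0.15, SD, n = 29). The groups therefore overlapped when arrays were pooled. With the run as a block, the carrier minus non-carrier change was -0.12 (SE 0.031, 95% interval -0.18 to -0.057, limma adjusted p = 0.0254), so that the intensity fell by 7.94% (95% interval -11.8% to -3.89%). Of all genes, 2.33% were called in either direction and 1.65% were called lower with carrier serum. With 1 of 9 called, the count is too small to set these genes apart from that background. Tested alone, the 9806 genes above the median intensity had 6.68% called. Of the 8 members among them, Atxn2l and Ubap2l were called there.

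**Figure D1:**
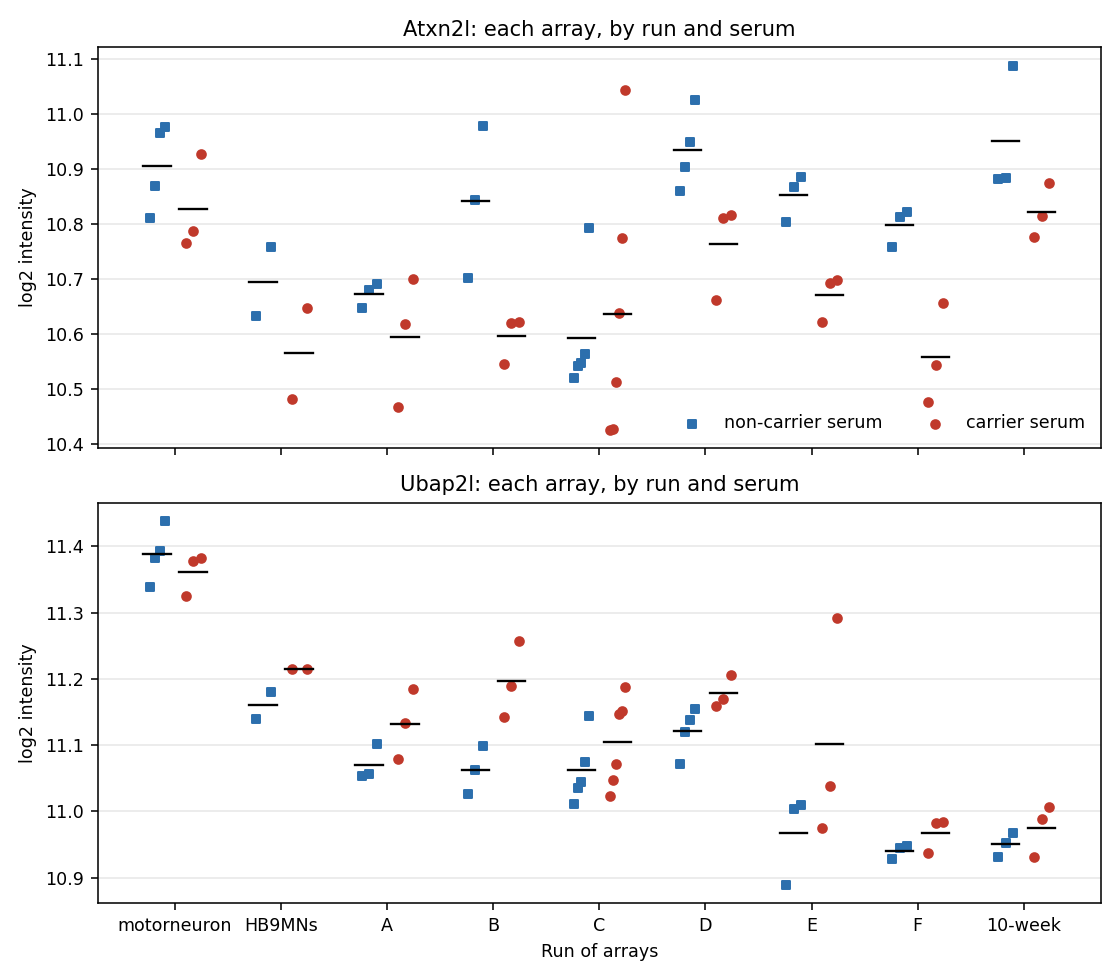
Log2 intensity of Atxn2l (top) and Ubap2l (bottom) on each of 59 arrays, by run on the horizontal axis. Blue squares are non-carrier serum, red circles are carrier serum and black bars are means of a serum within a run. Atxn2l carrier means lie below the non-carrier means in 8 of 9 runs, with run C the exception, and Ubap2l carrier means lie above in 8 of 9 runs, with motorneuron the exception.

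The Atxn2l difference was seen within most runs. Run B gave 10.55, 10.62 and 10.62 with carrier serum against 10.70, 10.84 and 10.98 with non-carrier serum. Run D gave 10.66, 10.81 and 10.82 against 10.86, 10.90, 10.95 and 11.03. The 10-week run gave 10.78, 10.81 and 10.87 against 10.88, 10.88 and 11.09. In each of these runs every carrier array was below every non-carrier array. The same held in runs E and F, described further below, and thus in 5 of 9 runs. With so few arrays per run, separation can arise by chance. The share of all genes that separate in as many runs was not counted, here or for the separations given below. In the motorneuron run (10.77, 10.79 and 10.93 against 10.81, 10.87, 10.97 and 10.98), in HB9MNs (10.48 and 10.65 against 10.63 and 10.76) and in run A (10.47, 10.62 and 10.70 against 10.65, 10.68 and 10.69) the carrier mean was lower and the arrays overlapped.

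Run C, the largest, differed in direction. Its carrier arrays were at 10.43, 10.43, 10.51, 10.64, 10.77 and 11.04 and its non-carrier arrays at 10.52, 10.54, 10.55, 10.56 and 10.79, a difference of means of 0.044. Both the lowest and the highest carrier values of the whole series were in this run. The serum by run interaction of Atxn2l was not past the threshold (limma unadjusted p = 0.295, adjusted p = 0.811), and leaving run C out gave 3 called genes of the 9 (Atxn2l, Tial1 and Ubap2l), while the share called over all genes was 8.16%. Leaving out run B, D, E, F or 10-week instead took the Atxn2l call away, with adjusted p from 0.0741 to 0.134 and a change of -0.12 to -0.10.

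Runs E and F hold 6 carrier and 6 non-carrier arrays, and are taken here to be the 12 test arrays of the study, which the labels do not state. They matter for Atxn2l because a gene list and a stress granule gene set of the study that contain it were chosen on the remaining arrays. In run E the carrier arrays were at 10.62, 10.69 and 10.70 and the non-carrier arrays at 10.80, 10.87 and 10.88. In run F they were at 10.48, 10.54 and 10.66 against 10.76, 10.81 and 10.82. The sera did not overlap in either run. The change over these 12 arrays was -0.21 (SE 0.042, limma unadjusted p = 0.000329, adjusted p = 0.148 over all genes). None of the 9 genes was called by limma in these runs, where 0.0867% of all genes were called, and at an unadjusted p under 0.05 there was 1 of 9 against 12.8% of all genes. Over the other 47 arrays Atxn2l changed by -0.096 (SE 0.037, limma adjusted p = 0.253).

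Ubap2l moved the other way, without passing the threshold. Its non-carrier arrays had a lowest value of 10.89, a median of 11.06 and a highest of 11.44 (mean 11.09 ± 0.14, SD, n = 30), and its carrier arrays 10.93, 11.15 and 11.38 (mean 11.13 ± 0.13, SD, n = 29). The ranges overlapped almost wholly. The change was 0.054 (SE 0.016, 95% interval 0.021 to 0.087, limma adjusted p = 0.0595), which is 3.84% of the intensity. Carrier arrays had the higher mean in 8 of 9 runs and did not overlap in 3, namely HB9MNs (11.22 and 11.22 against 11.14 and 11.18), run B (11.14, 11.19 and 11.26 against 11.03, 11.06 and 11.10) and run D (11.16, 11.17 and 11.21 against 11.07, 11.12, 11.14 and 11.15). This gene, whose product recruits RNA and G3BP proteins to granules, was called under several alternative settings, which are given under processing.

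The scaffold genes G3bp1 and G3bp2 and their partner Caprin1 showed no call. G3bp1 spanned 9.58 to 9.99 with non-carrier serum and 9.59 to 9.91 with carrier serum, with medians of 9.82 and 9.78. Its change was -0.026 (SE 0.016, 95% interval -0.058 to 0.0072, limma adjusted p = 0.357), and the carrier mean was lower in 7 of 9 runs with overlap in each. Caprin1 spanned 11.21 to 11.79 and 11.28 to 11.78, with medians of 11.48 and 11.44, and its change was -0.020 (SE 0.022, 95% interval -0.064 to 0.024, limma adjusted p = 0.602). For Caprin1 the sera did not overlap in HB9MNs and run F, with carrier lower in both. G3bp2 was dim: it lay below the median of the array on all 59 arrays, at 4.48 to 5.34 with non-carrier serum and 4.58 to 5.53 with carrier serum. Its change of 0.049 had the widest interval of the 9, from -0.060 to 0.16 (SE 0.055, limma adjusted p = 0.606), and its within-run spread was 0.21 (SD) against 0.057 to 0.12 for the other 8.

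Tia1 and Tial1, which encode the paralogous RNA-binding proteins TIA-1 and TIAR, had changes of opposite sign, neither past the threshold. Tia1 had a lowest value of 9.66, a median of 10.21 and a highest of 10.37 with non-carrier serum (mean 10.17 ± 0.18, SD, n = 30) and 9.88, 10.26 and 10.51 with carrier serum (mean 10.23 ± 0.14, SD, n = 29), a change of 0.045 (SE 0.021, limma adjusted p = 0.204). Tial1 had 8.90, 9.14 and 9.29 (mean 9.12 ± 0.097, SD, n = 30) and 8.84, 9.06 and 9.52 (mean 9.06 ± 0.13, SD, n = 29), a change of -0.062 (SE 0.026, limma adjusted p = 0.176). Tial1 means were lower with carrier serum in 8 of 9 runs, with run C the exception, and Tia1 means were higher in 7 of 9, with B and F the exceptions. The sera did not overlap for Tial1 in HB9MNs, B and 10-week, with carrier lower. For Tia1 they did not overlap in 10-week, with carrier higher. Tial1 was called without run C (-0.096, limma adjusted p = 0.00203) and with the motor neuron genes as covariates beside the run (-0.14, adjusted p = 0.000355), settings that called 8.16% and 31.2% of all genes. It was also called with array weights (-0.083, adjusted p = 0.00246), beside 14.3%. With the covariates the Tia1 change was -0.0018 (adjusted p = 0.959).

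Tardbp and Atxn2, the members with the best known links to ALS, showed no call. Tardbp spanned 8.11 to 8.79 with non-carrier and 8.10 to 8.97 with carrier serum, with medians of 8.48 and 8.54, and changed by 0.024 (SE 0.031, limma adjusted p = 0.669). Its 95% interval, -0.039 to 0.087, holds changes between -2.67% and 6.21% of the intensity. Atxn2 spanned 10.37 to 10.81 and 10.37 to 10.70, with medians of 10.58 and 10.58, and changed by -0.010 (SE 0.016, 95% interval -0.043 to 0.023, limma adjusted p = 0.738). Carrier and non-carrier arrays of Atxn2 overlapped in all 9 runs.

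**Figure D2:**
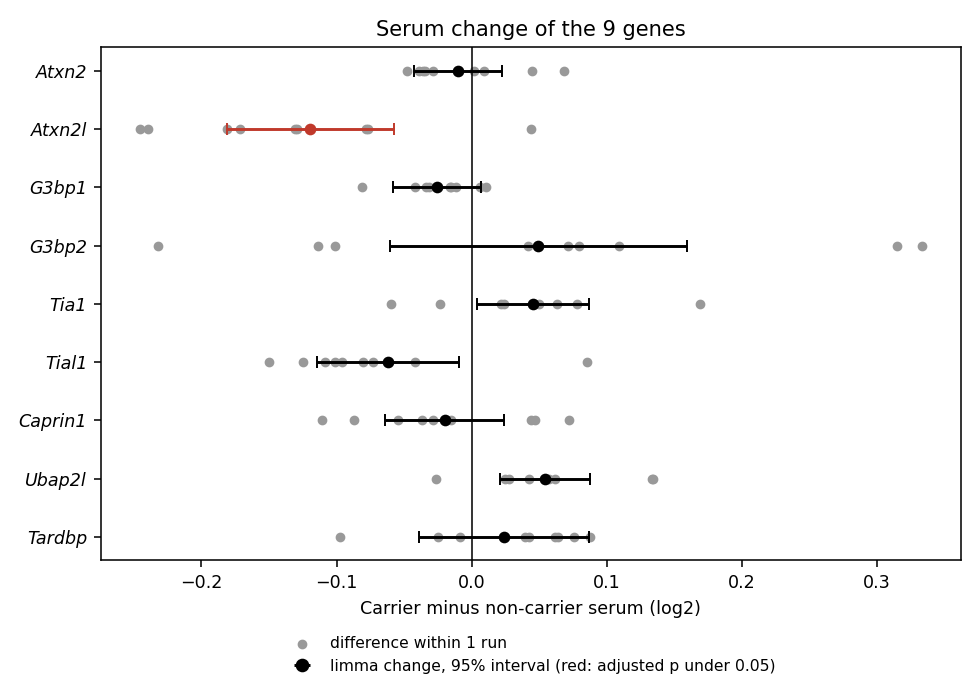
Carrier minus non-carrier change (log2) of the 9 genes. Points with bars are limma estimates with 95% intervals, red for an adjusted p under 0.05, and grey points are the differences of means within each of the 9 runs. Atxn2l is the only red point, at -0.12, and 8 of its 9 runs lie below 0.

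As a group, 5 of the 9 genes had changes below 0 and the median change was -0.010, beside a median of 0.016 and 38.9% below 0 over all genes. Of the 9, 8 were among the 9806 genes above the median intensity. Those 9806 genes had a median change of -0.0096, close to that of the 9. The contrast with all genes is therefore not matched for intensity and sets the 9 apart in no direction. At an unadjusted p under 0.05, 4 of 9 stood (Atxn2l, Ubap2l, Tial1 and Tia1), beside 20.7% of all genes. The 4 did not share a direction. The serum by run interaction was called for 0 of 9 by limma, beside 0.127% of all genes, and at an unadjusted p under 0.05 there were 0 of 9 beside 7.94%.

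Since a call in Atxn2l and none in Atxn2 does not show that the paralogs differ, the difference of their log2 intensities was compared between sera on each array. The level of such a difference depends on the probes of both genes and carries no meaning, so that only its change with serum is read. For Atxn2l over Atxn2 it had a lowest value of -0.042, a median of 0.21 and a highest of 0.49 with non-carrier serum, and -0.100, 0.097 and 0.38 with carrier serum. It changed by -0.11 with carrier serum (SE 0.027), with an adjusted p = 0.000285 over 3 pairs (unadjusted 0.00019, permutation test with 100000 draws within runs, two-sided). The carrier mean was lower in 8 of 9 runs and the sera did not overlap in 6 of them (HB9MNs, A, B, E, F and 10-week), while in run C it was higher by 0.092. Atxn2l and Atxn2 thus changed unequally with serum on these arrays. The 3 pairs were chosen with earlier results of these data known, so their p-values are not independent evidence. They are adjusted over 3 pairs and not over all genes, and how often other pairs of genes change as much was not tested.

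The Tial1 over Tia1 difference also changed, although neither gene was called alone. Both genes had opposite signs and small unadjusted limma p-values (0.0216 for Tial1 and 0.0329 for Tia1), so the difference restates those changes. With non-carrier serum its lowest, median and highest values were -1.33, -1.06 and -0.61, and with carrier serum -1.43, -1.18 and -0.81. The change was -0.11 (SE 0.024), with an adjusted p = 9e-05 by the same permutation test (unadjusted 3e-05). In 7 of 9 runs (motorneuron, HB9MNs, A, B, D, E and 10-week) every carrier array lay below every non-carrier array. In run E, for example, carrier values spanned -1.02 to -0.94 and non-carrier values -0.87 to -0.85. In runs C and F the carrier mean was higher, by 0.022 and 0.018, and the arrays overlapped. Over runs E and F together the change was -0.054 (permutation adjusted p = 0.165). The third pair, G3bp2 over G3bp1, changed by 0.075 (SE 0.060, permutation adjusted p = 0.221), with sera that overlapped in 8 of 9 runs.

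**Figure D3:**
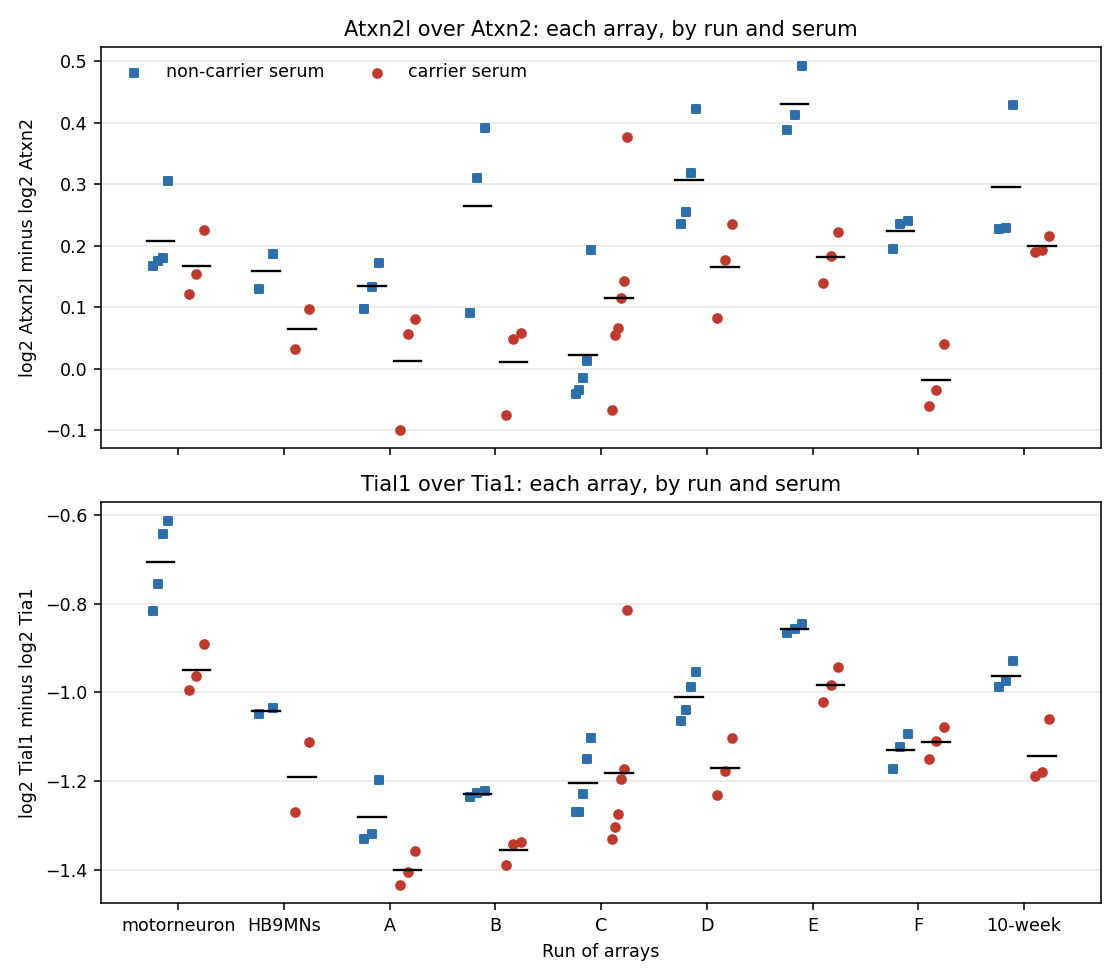
Difference of log2 intensities of Atxn2l and Atxn2 (top) and of Tial1 and Tia1 (bottom) on each of 59 arrays, by run. Blue squares are non-carrier serum, red circles are carrier serum and black bars are means. Carrier arrays of the lower panel lie wholly below the non-carrier arrays in 7 of 9 runs, and in runs C and F they overlap.

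The share of variance between runs was larger than that for serum for each of the 9 genes. These shares were not corrected for the number of levels. The 9 runs have more levels than the serum, which raises their share, so the shares do not rank run against serum. The share of variance between runs was lowest for G3bp2 (24%), highest for Tia1 and Ubap2l (80.3% each) and had a median of 61.4%. Beside it, the share for serum was 16.3% for Atxn2l and 6.43% or less for the other 8. The run effect was called by limma for 8 of 9 genes, all but G3bp2 (adjusted p = 0.0578), beside 94.0% of all genes, so that dependence on the run was the rule in this table. The runs were read from titles and no label names a batch, so what differed between them cannot be told apart.

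Ubap2l was highest in the motorneuron run, with a run mean of 11.38, against 11.19 in HB9MNs, the next below it. This gap of 0.19 was 3.25 times its spread within runs (SD 0.058). From HB9MNs down to run F at 10.95, most neighbouring runs were closer than that spread, the exception being the step of 0.072 between E (11.03) and 10-week (10.96). Tia1 had the opposite pattern, with its lowest run mean in motorneuron (9.83), 0.28 below run E (10.11) and 3.65 times its within-run spread, and with a gap of 1.31 times the spread from E to F. The remaining Tia1 run means, 10.21 to 10.31, had neighbours closer than the spread. The motorneuron run also had the highest array medians, 7.45 on the log2 scale against 7.27 to 7.33 for the other 8 runs, and its part in these levels was not tested.

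Caprin1 was highest in run B (11.71), followed by HB9MNs (11.60), E and C (11.51 each) and D (11.48), and lowest in 10-week (11.34). The gaps below B (1.34 times the within-run spread) and below HB9MNs (1.12 times) exceeded the spread. Tardbp was lowest in run A (8.24) and highest in F (8.70) and E (8.70). Its gap between A and B, 0.14, was 1.17 times the spread, and the other neighbours were closer. Atxn2 was lowest in run E (10.45), 1.10 times the spread below HB9MNs (10.52), and highest in motorneuron (10.68).

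Atxn2l itself ran from 10.62 in run C to 10.89 in the 10-week run, a range of 0.27 that is 2.26 times the serum change, and no neighbouring runs differed beyond its spread. G3bp1 ran from 9.66 in A to 9.86 in E, Tial1 from 8.97 in A to 9.19 in E and G3bp2 from 4.87 in B to 5.25 in motorneuron, also with neighbours closer than the spread. For the other 8 genes the range of run means was 3.54 times (Tial1) to 22.6 times (Atxn2) the size of the serum change. A range over 9 means is wider by construction than a single difference, so these ratios do not rank run against serum.

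**Figure D4:**
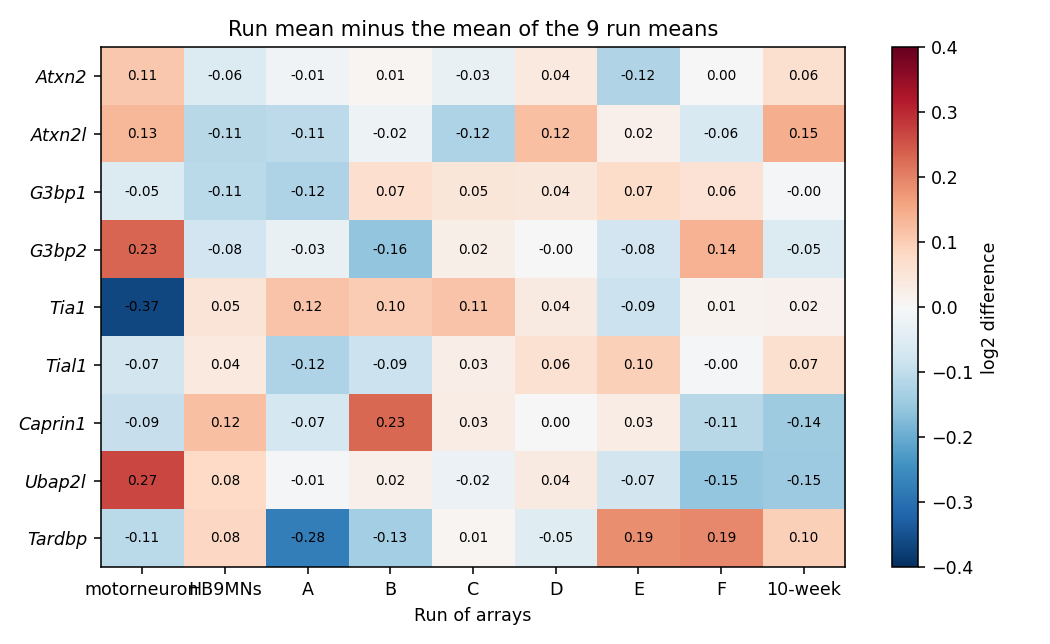
Mean log2 intensity of each gene in each of the 9 runs, minus the mean of its 9 run means, printed in each cell and coloured from blue (below) to red (above). The motorneuron run holds the lowest cell of the map, Tia1 at -0.37, and the high value of Ubap2l at 0.27, and run A holds Tardbp at -0.28.

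After the means of run and serum were taken out, the genes varied together in some pairs. Pearson's r over 59 arrays was 0.76 between Tia1 and Tardbp, 0.66 between Atxn2 and Ubap2l, 0.58 between Atxn2l and Tial1 and 0.55 between Caprin1 and Tardbp. The lowest was -0.33, between Atxn2 and Tia1. These values describe arrays that share their normalization. Of all genes, the one most like Atxn2l was Larp1 (r = 0.88), an RNA-binding regulator of ribosomal protein messages, followed by Nhlh1 (0.79). Atxn2 was most like Ubap2 (0.88), the paralog of Ubap2l, and Ylpm1 (0.78). Tardbp was most like the RNA helicase gene Ddx3x (0.84) and Tomm70a (0.81).

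Caprin1 was most like Ddx5 (0.84) and Hnrnpk (0.84), both coding for abundant RNA-binding proteins, Tia1 most like Ttc14 (0.84) and BC016423 (0.81), and Tial1 most like Bcap29 (0.83) and Cept1 (0.81). Ubap2l was most like Pcgf3 (0.76) and Raph1 (0.73), and G3bp1 most like Pphln1 (0.71) and Jtb (0.67). The dim G3bp2 reached only 0.57 with X2410137M14Rik and 0.57 with Bhmt. None of these genes passed the serum test, with Larp1 at -0.060 (limma adjusted p = 0.113).

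Other genes of the same machinery showed no calls. The set for stress granule assembly that the study used has 8 genes, all measured, of which 1 was called, Atxn2l itself, and 5 were below 0 (median change -0.023). Because the study chose this set on 47 of these arrays, its direction is not independent evidence. A broader list of 20 stress granule genes shares 3 genes (Ddx3x, Cirbp and Pum2) with that set. Of the 17 genes outside the set, 0 were called by limma, 2 had an unadjusted p under 0.05 (Usp10 and Pabpc4), beside 20.7% of all genes, and 10 were below 0 (median -0.016), beside 38.9%. The smallest p of the 20 belonged to Pum2, a repressor of translation from the study's set, with -0.055 (adjusted p = 0.121), and to Usp10, the deubiquitinase that binds G3BP, with -0.045 (adjusted p = 0.125).

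Processing bodies, which hold the messenger RNA decapping machinery, were covered by 11 genes. Of these 0 were called, 1 had an unadjusted p under 0.05 and 5 were below 0 (median 0.0042), with the smallest p for the decapping factors Edc4 (-0.043, limma adjusted p = 0.191) and Dcp1a (-0.037, adjusted p = 0.367). Among 7 genes for RNA-binding proteins linked to ALS, 0 were called and 0 had an unadjusted p under 0.05 (median -0.022), with the smallest p for Ewsr1 (-0.029, adjusted p = 0.408) and Hnrnpa1 (-0.035, adjusted p = 0.460). Of 11 neuronal RNA-binding protein genes 9 were measured, 0 were called and 1 had an unadjusted p under 0.05 (median -0.0096), with Rbfox3, the gene of the neuronal marker NeuN, at -0.063 (adjusted p = 0.241) and Ptbp1 at -0.018 (adjusted p = 0.614). Counting each gene once and without the 9, 50 of 52 listed genes were measured, 28 were below 0 and 7 had an unadjusted p under 0.05. Over all genes, 38.9% were below 0 and 20.7% had such a p. Genes above the median intensity had a median change of -0.0096, and the lists were not compared with genes of like intensity.

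**Figure D5:**
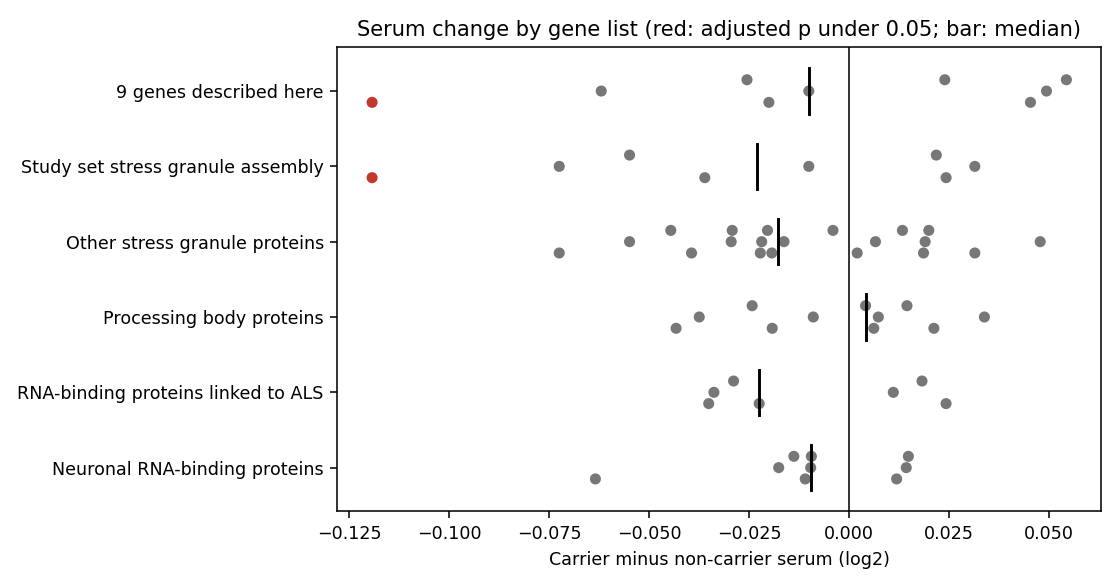
Carrier minus non-carrier change (log2) of each gene, by list. Each point is a gene, red for an adjusted p under 0.05, and black bars are medians of a list. Atxn2l, the red point at -0.12, appears in the upper pair of lists, and no other gene of the lists passed the threshold. Some genes stand in more than 1 list.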

How the data were processed

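Per the study's methods, the authors made expression values for their classifiers by robust multi-array averaging (RMA) in aroma.affymetrix and averaged the exons of each gene. They co-normalized training with test arrays and dropped outlier arrays by Grubbs' test. The methods do not say whether the deposited intensity values, which are on a linear scale, were made in this way. The submitters' processing notes name Affymetrix Expression Console and RMA. A genome build is not given in the sources used here.

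Log2 intensities (pseudocount 0) of 19613 genes were fitted with limma 3.58.1 (R 4.3.3), with the run, read from the titles, as a block. Tests were two-sided, p-values were adjusted by Benjamini-Hochberg over the whole table, and an adjusted p under 0.05 was called. Run and serum by run effects were moderated F tests. No gene was filtered out. Run C holds more arrays than a batch of the study. Paralog differences were tested with permutations of serum within runs. The script was tested on simulated data. The 9 genes, the lists, the marker genes and the 3 pairs were chosen with earlier results of these data known. The genes named outside the 9 were the called genes of each list, or the smallest p where none was called, and the 2 genes most like each of the 9. The number of arrays limits the precision. Alternatives were other normalizations, filters, covariates and blocks, and leaving out runs or arrays.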

Additional observations from a re-analysis of the deposited data

Results flagged for a closer look

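In 36 sets of arrays (the 9 genes in each serum and run with 4 to 10 arrays), 3 highest values stood apart from the rest of their set by Dixon's test, where chance gives about 1 in 20. The highest Atxn2l array of the non-carrier arrays of run C was at 10.79 (median 10.55, next 10.56). The highest Tia1 array of the non-carrier arrays of run D was at 10.24 (next 10.20). The highest G3bp2 array of the non-carrier arrays of the motorneuron run was at 5.34 (next 5.19).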

How the results depend on the processing

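The count of the 9 genes called for serum, 1 in the main analysis, was 0 without the block, 0 with the 4 motor neuron genes of the study's model (Olig2, Mnx1, Isl1 and Lhx3) in place of the run, 0 without runs E and F, 2 after quantile normalization, 2 with only the 9806 genes above the median intensity, 2 with a trended robust prior, 2 on linear intensities, 3 with array weights and 4 with the motor neuron genes beside the run (Atxn2l, Tial1, Caprin1 and Ubap2l). Leaving out 1 run at a time gave 0 to 3, namely 0 without B, D, E, F or 10-week, 2 without motorneuron and 3 without C. It was 1 with a replicate block, where 513 genes were called in all against 457, and the replicate block changed no call among the 9. Replicate numbers are shared in the titles of only some runs and belong to sera of different mice. The Atxn2l change was below 0 under all 21 alternatives on the log2 scale, from -0.16 to -0.096, with adjusted p from 5.29e-05 to 0.949, and the call was lost under 8 of them. Ubap2l was called under 7 of these 21 and on linear intensities. Without the 2 arrays called by Grubbs' test its change was 0.043 (limma adjusted p = 0.0644). Atxn2l stayed called there (-0.13, adjusted p = 0.0184), beside 3.65% of all genes. Over all genes, 0 were called without the block, 54 and 6126 with the motor neuron genes in place of and beside the run, 2803 with array weights, 59 without runs E and F, and 0.54% to 8.16% of genes leaving out 1 run. Quantile normalization called 2.26% of genes, the trended robust prior 2.59% and linear intensities 2.81%. Of the genes above the median intensity, 6.68% were called. Signs turned for G3bp2 after quantile normalization (-0.016) and for its difference to G3bp1 (-0.0018), for Tia1 (-0.0018) and Tardbp (-0.057) with the motor neuron genes beside the run, and for Tardbp (-0.013) with them in place of it. The Tial1 over Tia1 change lost its call in runs E and F alone (-0.054, permutation adjusted p = 0.165, range over its alternatives 1.5e-05 to 0.165). The paralog alternatives other than leaving out a run or the block were chosen after seeing the data. The run effect was called for 8 or 9 of the genes and the interaction, and the serum effect in runs E and F, for 0 under each alternative run. The cause of these shifts was not tested.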
